A study of Danio rerio with 8 samples.

Results

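The NF-kappa-B subunits and feedback genes examined here are 10 zebrafish genes, nfkb1, nfkb2, rel, rela, relb, nfkbiaa, nfkbiab, nfkbie, tnfaip3 and tnfaip2b, which were picked by gene symbol out of the 32520 genes counted in corneas. Each of the 10 symbols matched 1 gene identifier, and all 10 genes had enough reads to be tested. RNA was sequenced from 4 libraries of wounded corneas and 4 libraries of control corneas of adult wild-type fish of the AB background, and each library pooled 6 corneas of 3 fish. In the wounded fish the epithelium of both eyes had been abraded with an ophthalmic burr and the corneas were taken after 1.5 h of recovery, whereas control fish were anesthetized and handled for the same time without abrasion. Libraries with the same number came from the same tank, and the fish were 180 days old in tank 1, 145 days old in tank 2, 148 days old in tank 3 and 183 days old in tank 4. The main comparison set wounded libraries 2 to 4 against control libraries 1 to 4, because the study left wounded library 1 out of its own comparison. The values of wounded library 1 are given beside the others.

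NF-kappa-B is a family of transcription factors whose subunits pair up and wait in the cytoplasm, bound to inhibitor proteins called IkBs. Cytokine receptors, pattern recognition receptors and tissue damage activate the IkB kinase, the inhibitors are degraded, and the freed dimers enter the nucleus and switch on genes of inflammation, of cell survival and of their own restraint. Among these targets are the genes for the IkB inhibitors and for tnfaip3, so that in many cells the mRNA of the feedback genes follows the activity of the pathway, whereas the activity of the subunits themselves is set largely at the protein level and is not measured by RNA counts.

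Library totals lay between 39472162 and 42393109 counts in the wounded group and between 40524885 and 44250662 counts in the control group. Levels are given as CPM, counts scaled to the library total after TMM normalization, and gene lengths were not used, so that a level is compared only between libraries of the same gene. Wounded library 1 differed in its composition: its most abundant gene took 2.42% of the counts, against 3.54% to 4.52% in the other 7 libraries, and 14 markers of the corneal epithelium summed to 67723 CPM, against 98758 to 100076 CPM in wounded libraries 2 to 4 and 103858 to 109968 CPM in the controls. Markers of the lens summed to at most 0.945 CPM in any library, so that lens RNA was close to absent. In pooled tissue, fewer cells of a type and less RNA per cell cannot be told apart.

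Of the 10 genes, tnfaip2b alone passed an adjusted p of 0.05 in edgeR's quasi-likelihood test, and it rose in wounded corneas. No subunit gene, no IkB gene and not tnfaip3 passed in that fit. No gene of the 10 fell in edgeR, with or without the block, or in DESeq2, and none was lower at an unadjusted p under 0.05 in edgeR. Of all 18935 genes tested, 1.37% passed the adjusted threshold, 0.734% in the higher and 0.634% in the lower direction. The log2 fold changes of 9 of the 10 genes were positive, with a median of 0.43, against a median of 0.01 over all genes tested. At an unadjusted p under 0.05 the genes nfkb1, rel, nfkbiaa and tnfaip2b stood out, 4 of 10, where 18.5% of all genes did so. The 10 genes were chosen with earlier results of these data known. Their counts beside shares of all genes are therefore not independent evidence of a direction. With the tank as a block, nfkbiaa passed the threshold as well, so that 2 of 10 genes rose. That fit called 5.22% of all genes tested, with 2.71% of all in the higher direction. Control library 1 has no tank mate in it, so its fold changes rest on the pairs of tanks 2 to 4.

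**Figure D1:**
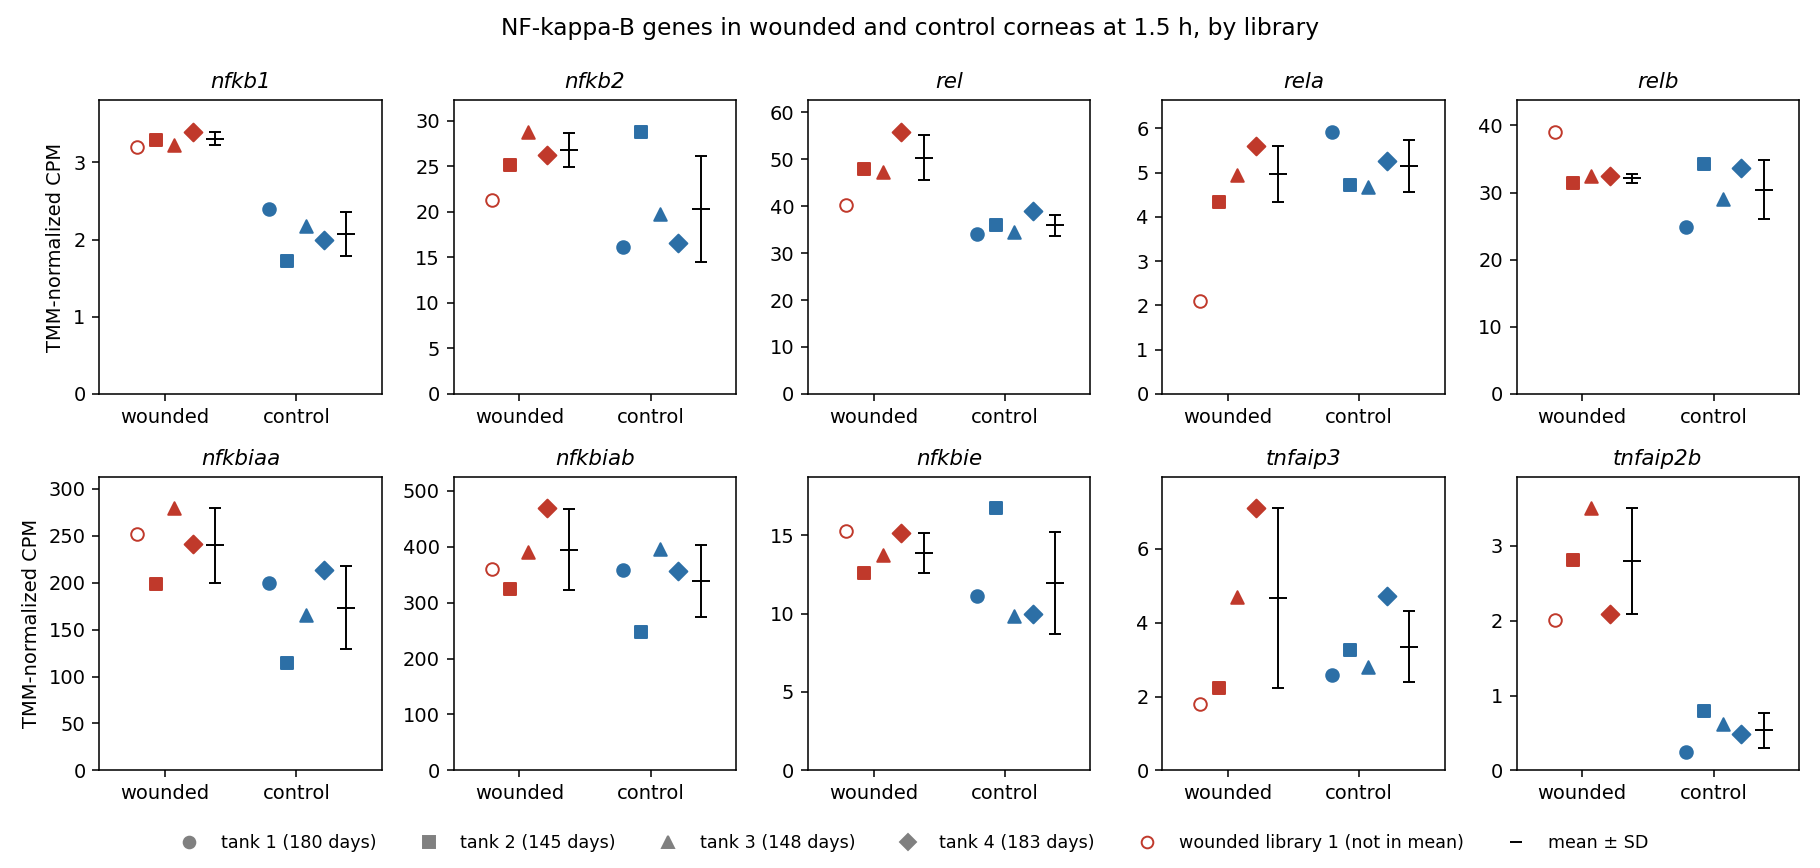
TMM-normalized CPM of the 10 NF-kappa-B genes in each library, with wounded corneas on the left and control corneas on the right of each panel. Symbols mark the tank and age, open circles mark wounded library 1, and bars give the mean ± SD of 3 wounded and 4 control libraries; in nfkb1, rel and tnfaip2b every wounded library lies above every control library.

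The largest log2 fold change of the 10 was that of tnfaip2b (ENSDARG00000058160), a copy of Tnfaip2, a gene first described by its induction by tumor necrosis factor in human endothelial cells. It stood at 2.81, 3.51 and 2.09 CPM in wounded libraries 2, 3 and 4 and at 2.01 CPM in wounded library 1, against 0.247, 0.796, 0.617 and 0.482 CPM in control libraries 1 to 4. Every wounded library lay above every control library, and the lowest level of all was that of control library 1. These levels rest on few reads, 116, 139 and 89 counts in wounded libraries 2 to 4 and 85 counts in wounded library 1, against 10, 35, 25 and 21 counts in the controls. The mean was 2.80 ± 0.710 CPM in wounded corneas and 0.536 ± 0.231 CPM in control corneas (n = 3 and 4, SD). This is a log2 fold change of 2.38 with an SE of 0.41 and an adjusted p of 0.0307 in edgeR. The call was kept with all 8 libraries, at 2.28 and an adjusted p of 0.0187 in edgeR, and in the tank-blocked fit, at 2.14 and 0.0162. With DESeq2 it was also kept, at 2.38 and an adjusted p of 1.6e-05. It was lost when 1 library was left out in 5 of 7 cases, with edgeR's adjusted p at 0.0637 without control library 1, 0.0871 without control library 3, 0.0610 without wounded library 2, 0.144 without wounded library 3 and 0.0542 without wounded library 4. The log2 fold change stayed between 2.14 and 2.63 over the 7 fits. Of all genes, 139 were called higher in the main fit and 20, 14, 72, 10 and 40 in the 5 fits, in the order given.

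Its copy tnfaip2a (ENSDARG00000043416), which was listed among the targets and not among the 10 genes, also rose. It stood at 13.7, 15.2 and 16.6 CPM in wounded libraries 2 to 4 and at 14.2 CPM in wounded library 1, against 8.18, 8.62, 8.46 and 8.84 CPM in the controls. The control libraries were nearly level and all 4 wounded libraries were above them. For tnfaip2a the log2 fold change was 0.83 with an SE of 0.15 and an adjusted p of 0.0329 in edgeR. In edgeR the adjusted p was 0.0940 and 0.105 when control library 1 or 3 was dropped, and 0.0516, 0.139 and 0.105 when wounded library 2, 3 or 4 was dropped, so that the call was lost in these 5 fits. The difference between the copies was not tested.

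Among the subunits, rel and nfkb1 were higher in every wounded library than in any control library without passing the adjusted threshold. The gene rel (ENSDARG00000055276) encodes c-Rel, a subunit with a transactivation domain that is best known from lymphocytes. It stood at 47.9, 47.3 and 55.9 CPM in wounded libraries 2 to 4 and at 40.2 CPM in wounded library 1, against 34.1, 36.0, 34.5 and 39.1 CPM in the controls. The gap between the lowest wounded and the highest control library was narrow, and it lay between wounded library 1 and control library 4. The mean was 50.4 ± 4.79 CPM in wounded corneas and 35.9 ± 2.26 CPM in control corneas (n = 3 and 4, SD). This is a log2 fold change of 0.49 with an SE of 0.13 and an adjusted p of 0.0828 in edgeR. It passed the threshold with DESeq2, at an adjusted p of 0.0219 and a log2 fold change of 0.48, in a test that called 9.29% of the genes given an adjusted p (4.30% called higher and the rest lower). In edgeR the adjusted p of rel was 0.0542 with the tank as a block, 0.154 with all 8 libraries and 0.0877 with all 8 and the block. It lay between 0.0956 and 0.228 in edgeR when 1 library was left out. DESeq2 called 2 of the 10 genes, tnfaip2b and rel.

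The gene nfkb1 (ENSDARG00000105261) encodes a precursor that is processed into a DNA-binding subunit without a transactivation domain of its own. It stood at 3.30, 3.23 and 3.40 CPM in wounded libraries 2 to 4 and at 3.20 CPM in wounded library 1, against 2.40, 1.73, 2.17 and 2.0 CPM in the controls. The 4 wounded libraries were nearly level, and the controls spread more widely below them, at 76 to 97 counts a library. For nfkb1 the log2 fold change was 0.67 with an SE of 0.23 and a 95% interval of 0.16 to 1.19, and edgeR's adjusted p was 0.162.

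With tnfaip2b, 3 of the 10 genes had wounded libraries 2 to 4 above all controls, where 8.16% of all genes did, and none of the 10 lay below all controls, where 9.45% of all genes did. The same 3 genes had all 4 wounded libraries above all 4 controls, where 5.04% of all genes did.

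The other subunits overlapped between the groups. The gene nfkb2 (ENSDARG00000038687), whose precursor is processed in the non-canonical branch of the pathway and partners RelB, stood at 25.2, 28.8 and 26.3 CPM in wounded libraries 2 to 4 and at 21.3 CPM in wounded library 1, against 16.2, 28.7, 19.8 and 16.6 CPM in the controls. Control library 2 was close to the highest wounded library, and the other 3 controls were below every wounded library. For nfkb2 the log2 fold change was 0.40 with a 95% interval of -0.05 to 0.84 and an adjusted p of 0.329 in edgeR.

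The gene relb (ENSDARG00000086173), the transactivating partner of Nfkb2, stood at 31.4, 32.5 and 32.5 CPM in wounded libraries 2 to 4 and at 39.1 CPM in wounded library 1, against 24.8, 34.3, 29.0 and 33.7 CPM in the controls. Wounded libraries 2 to 4 lay inside the range of the controls, and wounded library 1 was the highest of the 8. For relb the log2 fold change was 0.08 with a 95% interval of -0.25 to 0.40 and an adjusted p of 0.827 in edgeR.

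The gene rela (ENSDARG00000098696) encodes the main transactivating subunit of the canonical branch. It stood at 4.34, 4.94 and 5.60 CPM in wounded libraries 2 to 4 and at 2.11 CPM in wounded library 1, against 5.93, 4.73, 4.69 and 5.26 CPM in the controls. Wounded library 1 was far below the other 7 libraries, with 89 counts against 179 to 240 counts elsewhere, and the others overlapped throughout. Without wounded library 1 the log2 fold change was -0.05 with a 95% interval of -0.49 to 0.38 and an adjusted p of 0.919 in edgeR, and with it the log2 fold change was -0.27. The low rela level stood in the library that was also lowest in the epithelial marker sum, whose part in it was not tested.

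Among the IkB genes, nfkbiaa was the one whose call turned on the tank. The gene (ENSDARG00000005481) encodes a copy of the IkB-alpha inhibitor, which holds the dimers in the cytoplasm and in mammals is resynthesized within the first hours of a response. It stood at 199.0, 279.6 and 240.8 CPM in wounded libraries 2 to 4 and at 251.4 CPM in wounded library 1, against 199.9, 114.2, 165.5 and 213.1 CPM in the controls. The groups overlapped, since wounded library 2 was below control libraries 1 and 4, yet its own tank mate, control library 2, was the lowest of all. The mean was 239.8 ± 40.3 CPM in wounded corneas and 173.2 ± 44.2 CPM in control corneas (n = 3 and 4, SD). This is a log2 fold change of 0.47 with an SE of 0.20 and an adjusted p of 0.252 in edgeR. Blocking on the tank, which rests on tanks 2 to 4, gave a log2 fold change of 0.58 with an SE of 0.14. Its adjusted p was 0.0461 in edgeR. With all 8 libraries and the block, edgeR's adjusted p was 0.0653, so that the call was lost when wounded library 1 was added. That fit called tnfaip2b alone of the 10 genes and 4.33% of all genes, and the fit of all 8 libraries without the block called tnfaip2b alone and 1.26% of all genes.

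Its copy nfkbiab (ENSDARG00000007693) stood at 325.0, 390.9 and 469.0 CPM in wounded libraries 2 to 4 and at 360.6 CPM in wounded library 1, against 357.7, 246.7, 395.4 and 355.6 CPM in the controls. The ranges overlapped widely, with control library 2 again the lowest. For nfkbiab the log2 fold change was 0.22 with a 95% interval of -0.17 to 0.61 and an adjusted p of 0.546 in edgeR.

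The gene nfkbie (ENSDARG00000068367) encodes IkB-epsilon, an inhibitor that in mammalian cells is induced later than IkB-alpha. It stood at 12.6, 13.7 and 15.1 CPM in wounded libraries 2 to 4 and at 15.3 CPM in wounded library 1, against 11.1, 16.7, 9.86 and 9.97 CPM in the controls. Control library 2 was the highest of all 8 libraries and the other 3 controls were below every wounded library. For nfkbie the log2 fold change was 0.21 with a 95% interval of -0.24 to 0.67 and an adjusted p of 0.628 in edgeR.

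The gene tnfaip3 (ENSDARG00000027777) encodes a ubiquitin-editing enzyme that shuts off signaling upstream of the IkB kinase. It stood at 2.23, 4.69 and 7.10 CPM in wounded libraries 2 to 4 and at 1.80 CPM in wounded library 1, against 2.59, 3.25, 2.81 and 4.73 CPM in the controls. It held both the lowest and the highest of its 8 levels among the wounded libraries, and relative to its mean it spread more widely in that group than the other 9 genes did. For tnfaip3 the log2 fold change was 0.48 with a 95% interval of -0.32 to 1.29 and an adjusted p of 0.522 in edgeR, an interval that holds a rise of the size of nfkbiaa as well as no change.

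**Figure D2:**
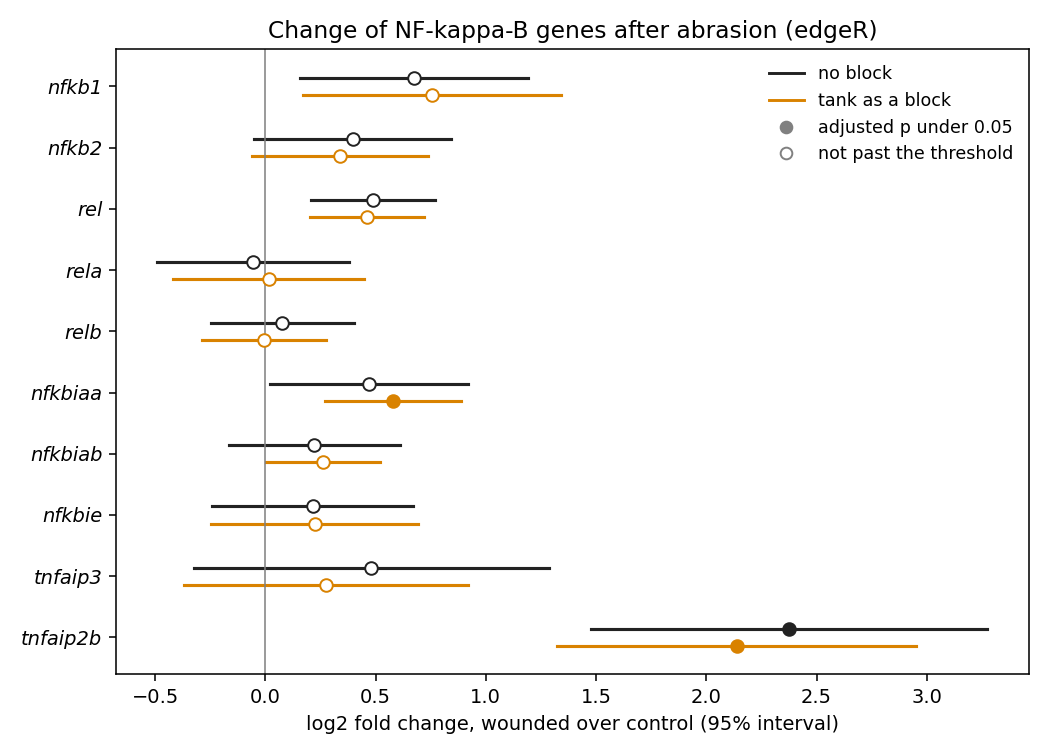
Log2 fold change of wounded over control corneas in edgeR for the 10 NF-kappa-B genes, without and with the tank as a block, with 95% intervals; filled points passed an adjusted p of 0.05. The gene tnfaip2b is filled in both fits, at 2.38 and 2.14, and nfkbiaa only with the block, at 0.58.

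Within tanks, the ratio of the wounded to the control library could be read at each age. Of the 10 genes, 4 (nfkb1, rel, nfkbiaa and tnfaip2b) were higher in the wounded library in each of tanks 2 to 4, where 23.2% of all genes were, and the same 4 were higher in tank 1 as well, where 15.5% of all genes were higher in all 4 tanks. No gene of the 10 was lower in each of tanks 2 to 4, where 22.6% of all genes were. The most even ratio was that of rel, whose log2 ratios were 0.41, 0.45 and 0.52 in tanks 2 to 4 and 0.24 in tank 1.

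For nfkb1 the log2 ratios of wounded over control were 0.93, 0.57 and 0.77 in tanks 2 to 4 and 0.42 in tank 1. For nfkbiaa they were 0.80, 0.76 and 0.18 in tanks 2 to 4 and 0.33 in tank 1, so that the younger tanks 2 and 3 had the larger ratios and the older tanks 1 and 4 the smaller. For tnfaip2b they were 1.82, 2.51 and 2.11 in tanks 2 to 4 and 3.03 in tank 1, the tank whose control library held only 10 counts of this gene. The sign differed between tanks 2 to 4 for relb, at -0.13, 0.16 and -0.05, and for nfkbiab, at 0.40, -0.02 and 0.40. It also differed for 4 genes that were lower in the wounded library of tank 2 and higher in tanks 3 and 4. In tank 2 the log2 ratio was -0.19 for nfkb2, -0.13 for rela, -0.41 for nfkbie and -0.55 for tnfaip3, whereas in tanks 3 and 4 it was 0.54 and 0.66 for nfkb2, 0.08 and 0.09 for rela, 0.48 and 0.60 for nfkbie and 0.74 and 0.59 for tnfaip3. The share of all genes with this order was not computed. In tank 1, which holds wounded library 1, the log2 ratio was -1.49 for rela, -0.53 for tnfaip3 and 0.65 for relb.

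**Figure D3:**
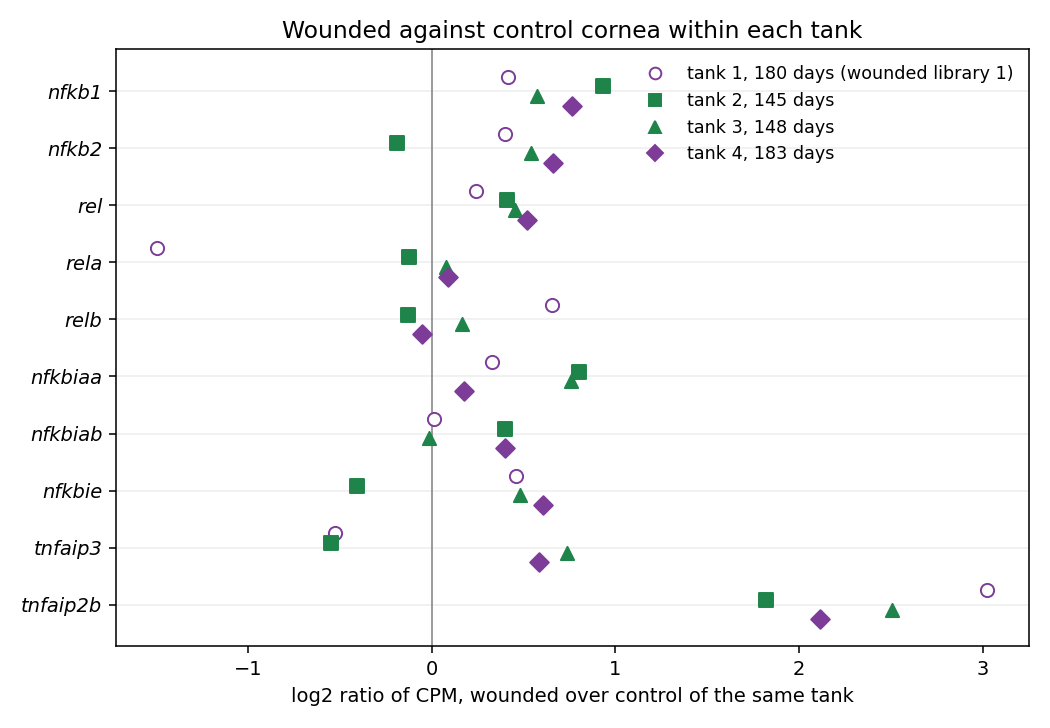
Log2 ratio of the wounded over the control library of the same tank for the 10 NF-kappa-B genes, with purple symbols for the older tanks 1 and 4, green symbols for the younger tanks 2 and 3, and an open circle for the tank of wounded library 1. In tnfaip2b the 4 ratios lie between 1.82 and 3.03, in nfkb1 and rel between 0.24 and 0.93, and in rela the open circle stands alone at -1.49.

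Among the controls, library 2 was the highest of the 4 in nfkb2, relb, nfkbie and tnfaip2b and the lowest in nfkb1, nfkbiaa and nfkbiab, 7 of 10 genes, and it was the highest or lowest control for 55.2% of all genes. Control library 1 was also an extreme for 7 of the 10, the highest in nfkb1 and rela and the lowest in nfkb2, rel, relb, tnfaip3 and tnfaip2b, and for 52.6% of all genes. The summed CPM of 39 leukocyte marker genes was 1710 CPM in control library 2 and 1199 to 1296 CPM in the other controls, and its part in these levels was not tested.

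Age was compared between the older cohort (tanks 1 and 4, 180 and 183 days) and the younger cohort (tanks 2 and 3, 145 and 148 days), with the condition as a covariate and wounded library 1 left out. None of the 10 genes passed the adjusted threshold in edgeR, where 0.238% of all genes did, and none had an unadjusted p under 0.05, where 8.67% of all genes did. DESeq2 called none of the 10 and 1.23% of all genes with an adjusted p. Age and tank cannot be told apart beyond these 2 tanks per cohort. Over all 8 libraries, 12 keratocyte marker genes summed to 13365 to 16900 CPM in the younger tanks and 6376 to 9346 CPM in the older tanks. The part of this difference in the age differences of the 10 genes was not tested.

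The largest age differences of the 10 genes were in tnfaip2b, with a log2 fold change of older over younger of -0.78 (95% interval -1.58 to 0.02), and in tnfaip3, with 0.59 (95% interval -0.13 to 1.32), at adjusted p of 0.588 and 0.664 in edgeR. They were 0.35 for nfkbiaa and -0.35 for nfkb2, at adjusted p of 0.658 and 0.630 in edgeR, and between -0.11 and 0.26 for the other 6 genes. In the controls alone, rela and nfkbiaa were higher in both older libraries than in both younger ones, where 15.8% of all genes were, and nfkb2 and tnfaip2b were lower in both, where 16.5% of all genes were. For nfkbiaa this meant 199.9 and 213.1 CPM in the older controls and 114.2 and 165.5 CPM in the younger controls. For tnfaip2b it meant 0.247 and 0.482 CPM in the older controls and 0.796 and 0.617 CPM in the younger controls.

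Whether the response to abrasion differed between the cohorts was tested as an interaction over all 8 libraries. No gene of 18602 passed the adjusted threshold in edgeR (0%), 1.82% had an unadjusted p under 0.05, and DESeq2 also called 0 genes. The log2 difference in response, older minus younger, was -0.53 for nfkbiaa (95% interval -1.27 to 0.21) and 0.31 for tnfaip2b (95% interval -1.16 to 1.79). The interval of nfkbiaa holds a difference as large as its change after abrasion, and that of tnfaip2b does not. The smallest unadjusted p of the 10 genes was 0.143, that of nfkbiaa, and all 10 missed the adjusted threshold in edgeR.

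The rest of the pathway was read from gene lists written from general knowledge, chiefly of mammals. Among 10 other inhibitors and IkB kinase genes, none passed the threshold in DESeq2, which gave 9 an adjusted p, or in edgeR. In edgeR 4 had an unadjusted p under 0.05, where 18.5% of all genes did, and the median log2 fold change was -0.06. The smallest adjusted p was that of bcl3 (ENSDARG00000087832), an atypical IkB that works in the nucleus, at 5.16, 6.13 and 5.58 CPM in wounded libraries 2 to 4 and 5.49 CPM in wounded library 1, against 2.84, 4.46, 2.44 and 3.74 CPM in the controls. All 4 wounded libraries of bcl3 were above the controls, at a log2 fold change of 0.74 with an SE of 0.24 and an adjusted p of 0.144 in edgeR.

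Wounded libraries 2 to 4 were below all controls in 3 of these 10 genes, where 9.45% of all genes were. The 3 were chuk, a catalytic subunit of the IkB kinase, ikbkg, its regulatory subunit, and tbk1, a related kinase. These 3 genes, named after their values were seen, each had a log2 fold change of -0.36, at adjusted p between 0.174 and 0.216 in edgeR, so that none passed. The other kinase genes of the list had log2 fold changes of -0.05 for ikbkb, -0.11 for ikbke, 0.13 for map3k14a and 0.31 for map3k14b, and none of them passed either. A further gene of this list, nfkbiz, which encodes a nuclear IkB, stood at 121.2, 130.0 and 123.1 CPM in wounded libraries 2 to 4, against 125.3 to 141.1 CPM in the controls, and wounded library 1 was apart at 41.2 CPM.

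Of 36 adaptors and signal proteins upstream of the kinase, 1 fell and none rose in edgeR, where 0.634% and 0.734% of all genes did. The median log2 fold change was -0.03. Wounded libraries 2 to 4 lay below all controls in 7 of the 36, where 9.45% of all genes did. They lay above all controls in 3, where 8.16% of all genes did. The gene that fell was tab3 (ENSDARG00000062063), which encodes a ubiquitin-binding adaptor of the kinase Tak1. It stood at 8.55, 7.16 and 8.35 CPM in wounded libraries 2 to 4 and at 11.7 CPM in wounded library 1, against 15.1, 14.2, 14.0 and 12.5 CPM in the controls. All 4 wounded libraries were below the controls, with wounded library 1 the nearest to them. For tab3 the log2 fold change was -0.80 with an SE of 0.16 and an adjusted p of 0.0420 in edgeR, which became 0.0905 with all 8 libraries. Dropping control library 1, 3 or 4 gave an adjusted p of 0.108, 0.128 and 0.0536 in edgeR, and dropping wounded library 2, 3 or 4 gave 0.0732, 0.172 and 0.107, so that the call was lost in 6 of 7 fits. With the tank as a block 4 genes of this list fell, where 475 of all 18935 genes did. With DESeq2 5 fell of the 32 given an adjusted p, where 709 of all 14191 genes did.

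Of 18 receptors that signal to NF-kappa-B, none passed the threshold in edgeR and 2 had an unadjusted p under 0.05, where 18.5% of all genes did. Their median log2 fold change was 0.26. DESeq2 gave 12 of the listed receptors an adjusted p and called 1, where it called 9.29% of all genes given an adjusted p. The smallest adjusted p was that of cd40 (ENSDARG00000054968), a receptor of the tumor necrosis factor family that feeds the non-canonical branch. It stood at 11.2, 17.7 and 7.97 CPM in wounded libraries 2 to 4 and at 12.1 CPM in wounded library 1, against 3.11, 6.10, 3.92 and 5.67 CPM in the controls. All 4 wounded libraries of cd40 were above the controls. The log2 fold change was 1.39 with an SE of 0.30 and an adjusted p of 0.0548 in edgeR, and it was the receptor that passed with DESeq2 (0.000557), as it did with all 8 libraries (0.0379).

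Of 38 tested genes listed as NF-kappa-B targets, chiefly from knowledge of mammals, 9 rose and none fell in edgeR. Of all genes tested, 0.734% rose and 0.634% fell. Many of the 38 also answer to other pathways. The median log2 fold change of the 38 was 0.67, and 31 were positive. Wounded libraries 2 to 4 lay above all controls in 17 of the 38, where 8.16% of all genes did. A further 7 genes of the list, the tnfa and lta cytokines among them, had too few reads to be tested, and tnfa stood at no more than 0.252 CPM in any library. The 9 genes were il1b, cxcl18b, cebpb, tnfaip2a, a copy listed as PTGS2 (ENSDARG00000010276), and the pairs of copies listed as SOCS3 and JUNB. The list was written with earlier results of these samples known, so that its count is not independent evidence of a direction. The count moved when single libraries were dropped in edgeR. Dropping control library 1, 2, 3 or 4 left 4, 12, 2 and 10 targets called higher. Dropping wounded library 2, 3 or 4 left 4, 1 and 6. The calls over all genes moved too, from 139 higher in the main fit. In the same order they were 20, 264, 14 and 155 for the dropped controls, then 72, 10 and 40. The lower target counts therefore came in fits that called fewer genes of any kind higher. Blocking on the tank, 12 rose and 1 fell, where 514 and 475 of all 18935 genes did. With DESeq2 15 rose and 1 fell of the 29 listed targets given an adjusted p, where 610 and 709 of all 14191 genes did.

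The smallest adjusted p of the targets was that of a JUNB copy (ENSDARG00000104773), a partner of Fos in AP-1. It stood at 1410, 1469 and 1155 CPM in wounded libraries 2 to 4 and at 783.5 CPM in wounded library 1, against 213.1, 368.6, 279.3 and 490.7 CPM in the controls. All 4 wounded libraries were above the controls, with wounded library 1 the nearest to them, and the log2 fold change was 1.99 with an SE of 0.24 and an adjusted p of 0.00754 in edgeR. The other JUNB copy (ENSDARG00000074378) had a log2 fold change of 1.93 with an SE of 0.26 and an adjusted p of 0.0116 in edgeR, which was lost without control library 1 (0.0546), control library 3 (0.0554) or wounded library 3 (0.0712).

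The cytokine gene il1b (ENSDARG00000098700), which encodes interleukin 1 beta, stood at 50.9, 56.1 and 42.1 CPM in wounded libraries 2 to 4 and at 64.6 CPM in wounded library 1, against 23.3, 15.3, 14.0 and 14.4 CPM in the controls. The groups were well apart and wounded library 1 was the highest. The log2 fold change was 1.57 with an SE of 0.20 and an adjusted p of 0.00947 in edgeR, which was lost without wounded library 3 (0.0624). The gene cebpb (ENSDARG00000042725), which encodes a transcription factor that joins NF-kappa-B at many inflammatory genes, stood at 1379, 1432 and 1480.5 CPM in wounded libraries 2 to 4 and at 898.1 CPM in wounded library 1, against 917.3, 629.3, 619.9 and 839.3 CPM in the controls. Wounded library 1 lay inside the control range. The log2 fold change of cebpb was 0.93 with an SE of 0.15 and an adjusted p of 0.0234 in edgeR, which was lost with all 8 libraries (0.0623), without control library 3 (0.0871), without wounded library 3 (0.114) and without wounded library 4 (0.0648).

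**Figure D4:**
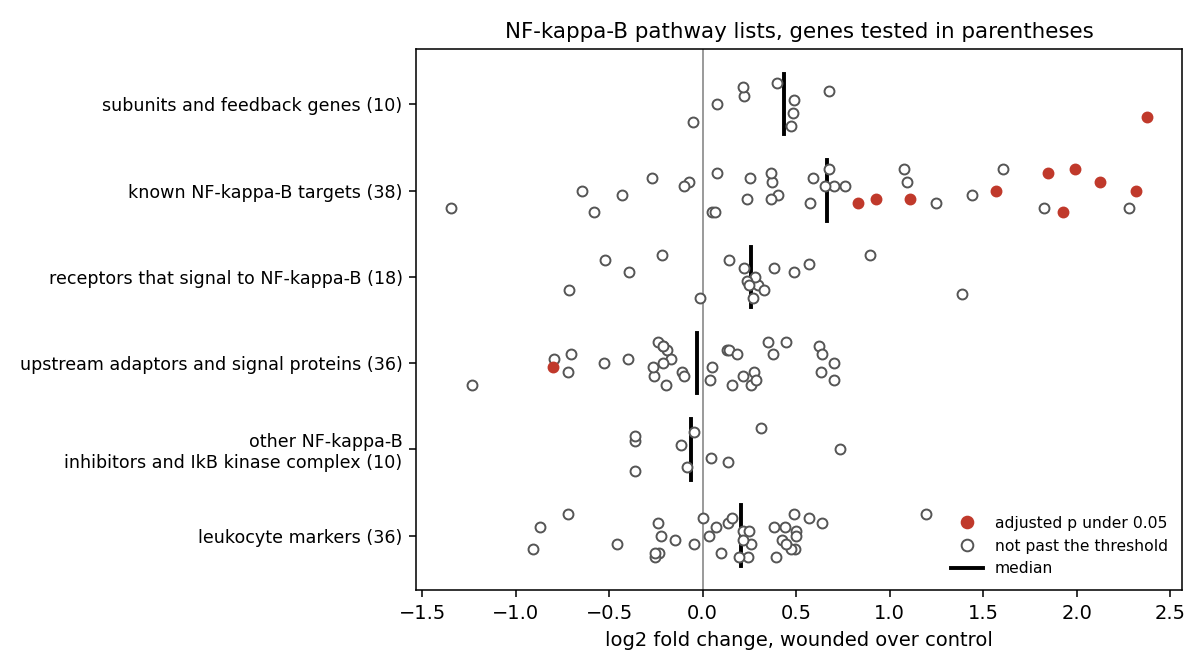
Log2 fold change of wounded over control corneas in edgeR for each gene tested in the NF-kappa-B lists and in the leukocyte markers, with 1 point per gene, filled where the adjusted p passed 0.05, and a bar at the median of each list. The targets have 9 filled points and a median of 0.67. The 10 subunits and feedback genes have 1 filled point, that of tnfaip2b, and a median of 0.43. The other lists have medians between -0.06 and 0.26.

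Leukocytes hold much of this pathway, and their markers were measured beside it. The 39 leukocyte marker genes summed to 1276, 1169 and 1535 CPM in wounded libraries 2 to 4 and to 1148 CPM in wounded library 1, against 1199, 1710, 1227 and 1296 CPM in the controls, so that the sums overlapped. DESeq2 gave 28 of the markers an adjusted p and called 1, where it called 9.29% of all genes given an adjusted p. Of 36 tested in edgeR, none passed the threshold and 4 had an unadjusted p under 0.05, where 18.5% of all genes did. The median log2 fold change was 0.20. The smallest adjusted p was that of a copy listed as MPEG1 (ENSDARG00000043093), a macrophage gene, at 28.2, 23.9 and 47.8 CPM in wounded libraries 2 to 4 and 25.4 CPM in wounded library 1, against 12.7, 20.7, 11.6 and 13.2 CPM in the controls. All 4 wounded libraries were above the controls, and the log2 fold change of 1.19 had an adjusted p of 0.0563 in edgeR, and of 0.0323 with the tank as a block. The fit with the block called 2 of the 36 markers higher, where it called 2.71% of all genes higher. The neutrophil genes lyz and csf3r stood at no more than 1.02 and 0.518 CPM in any library, and 1 of the 39 genes, a copy listed as MFAP4, was at 0 in all. The part of leukocytes in the higher tnfaip2b and target levels was not tested.

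No single marker gene of the cornea itself passed the threshold in edgeR without the block or in DESeq2 either. Of 14 epithelial genes 2 had an unadjusted p under 0.05 in edgeR, where 18.5% of all genes did. The smallest adjusted p in edgeR was 0.184 for epcam, an epithelial adhesion molecule, at a log2 fold change of 0.25. The epithelial markers summed to between 67723 and 100076 CPM in the wounded libraries, all below the 103858 to 109968 CPM of the controls. Of 11 keratocyte genes 2 had an unadjusted p under 0.05 in edgeR, where 18.5% of all genes did. With the block 1 was called, where 5.22% of all genes were. Without the block the smallest adjusted p in edgeR was 0.215, at a log2 fold change of 0.72, for a copy listed as OGN (ENSDARG00000044132), a stromal proteoglycan. Keratocyte markers summed to 15373, 16900.4 and 9346 CPM in wounded libraries 2 to 4 and 6376 CPM in wounded library 1. In control libraries 1 to 4 the sums were 9248, 13365, 14052 and 8877 CPM. In both groups the younger tanks 2 and 3 had higher sums than the older tanks 1 and 4. Of 15 retinal genes none passed in edgeR, although 1 was under an unadjusted p of 0.05, where 18.5% of all genes were. None passed in DESeq2 either, which gave only 6 listed retinal genes an adjusted p. The smallest adjusted p in edgeR was 0.215, at a log2 fold change of -0.64, for a copy listed as RPE65 (ENSDARG00000007480). The retinal sum lay at 155 to 304 CPM in wounded libraries 2 to 4 and 414 CPM in wounded library 1. In the controls it lay at 156 to 327 CPM.

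The genes whose pattern over the 8 libraries was most like that of tnfaip2b were a copy listed as INHBA (ENSDARG00000012671), flt1 (ENSDARG00000019371) and a copy listed as IGF2BP2 (ENSDARG00000003421). After centering log2(CPM + 0.5) of each gene over the libraries, they differed from tnfaip2b by a root mean square of 0.225, 0.240 and 0.243 on the log2 scale. INHBA encodes a subunit of activin, flt1 a receptor of vascular endothelial growth factor, and IGF2BP2 an mRNA-binding protein. Their log2 fold changes in edgeR, without the added 0.5 CPM, were 1.67, 1.72 and 1.91, against 2.38 for tnfaip2b. The genes were selected for likeness over these same wounded and control libraries, so that positive fold changes follow in part from the selection. The added 0.5 CPM is close to the control mean of tnfaip2b, 0.536 CPM. It therefore shrank the change of tnfaip2b in the likeness measure.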

How the data were processed

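Corneal RNA of 8 libraries (6 corneas of 3 fish each) was sequenced, and all 8 were mapped to a condition and a number by their labels. The authors deposited raw counts for each gene, made with bcl2fastq 2.20.0.422, Trimmomatic, STAR 2.6.0c on GRCz11 and featureCounts on Ensembl 97, with no normalization. The libraries were made with a directional kit, but whether featureCounts used strand is not given in the sources used here, so that reads of overlapping or antisense genes cannot be told apart. Near-identical copies are uncertain. Library totals were 39472162 to 44250662 counts. The SD between libraries includes the counting error.

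Counts were fitted across all genes with edgeR 4.0.16 (quasi-likelihood test, filterByExpr, TMM, Benjamini-Hochberg adjustment, threshold 0.05) in R 4.3.3, on wounded libraries 2 to 4 and control libraries 1 to 4, with DESeq2 1.42.0 as an alternative. The installed limma was version 3.58.1. The script was tested on simulated data. CPM of all 8 libraries use the scaling of the 7 libraries. Plots used Python 3.11.15 and matplotlib 3.10.9. Age cohorts were 180 days or older and younger. Further alternatives were the tank block, all 8 libraries, other filters and scalings, an age covariate and leaving out each library.

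Same-numbered libraries came from the same tank by the study's methods. For this reason the numbers were taken as pairs. The correlation of their deviations from their group's mean was 0.20, 0.35, 0.29 and 0.34 in tanks 1 to 4. That of each other pair was at or below -0.00337. Deviations from a mean cancel out within a group, so these negative values follow in part from the positive ones. They are not separate support for the pairing.

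The members and lists were chosen with earlier results of these data known. By rule the text names all 10 members, in each list up to 4 called genes per direction by adjusted p (or the 1 with the smallest where none was called), tnfaip2a, and the 3 genes most like a called member. Outside this rule, chuk, ikbkg, tbk1 and the other kinase genes, nfkbiz, tnfa, lta, lyz, csf3r, the MFAP4 copy and the further called targets (cxcl18b and the PTGS2 and SOCS3 copies) were named after their values were seen. Of 215 list symbols, 194 matched 218 gene identifiers. No gene lengths, sequences or coordinates were used here.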

Additional observations from a re-analysis of the deposited data

Results flagged for a closer look

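The level of relb in wounded library 1, 39.1 CPM, stood far from the other 3 wounded libraries, which lay between 31.4 and 32.5 CPM. The gap to the nearest of them was a share of 0.855 of the group's whole range, beyond Dixon's critical value for 4 samples. It was the 1 such value among 20 tests of the 10 genes in the wounded and control groups, and chance gives about 1 in 20. The level of rela in the same library, 2.11 CPM, did not pass this test.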

How the results depend on the processing

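The number of genes called in wounded against control corneas moved with the settings. In the higher direction 139 genes were called, against 514 with the replicate block, 610 with DESeq2, 276 with every gene kept, 456 with the block over all 8 libraries, and 10 to 264 when 1 library was left out. In the lower direction 120 were called, against 475, 709, 204 and 349 in the same fits, 193 with the age cohort as a covariate, and 7 to 192 when 1 library was left out. Of the 10 members 1 rose, against 2 with the block, 2 with DESeq2 and 0 to 1 when 1 library was left out, and the block changed no member's call other than that of nfkbiaa. Of the age calls, 24 were higher in older fish, against 4 in controls alone, 184 with DESeq2 and 2 to 23 when 1 library was left out, and 21 were lower, against 4, 123 and 5 to 23, and 8 with all 8 libraries. Most changes of sign were close to 0. The wounded over control log2 fold change of rela became 0.0148 with the block and lay between -0.15 and 0.0319 when 1 library was left out (above 0 without control library 1, at 0.02, or wounded library 2), and that of relb became -0.0057 with the block and lay between -0.0085 (without control library 1) and 0.14. The age difference of rela became -0.0064 with all 8 libraries. That of relb became 0.0254 with all 8 and lay between -0.15 and 0.0585 when 1 was left out (above 0 when control library 1 or 2 was dropped), and that of nfkbie lay between -0.33 and 0.15 (above 0 when control library 2 was dropped). The interaction of rel became 0.18 and that of rela 0.0239 without wounded library 1, and that of tnfaip3 became -0.0560 with the block. The RPE65 copy (ENSDARG00000007480) became 0.16 with all 8 libraries. The cause of these moves was not tested. With 3 against 4 libraries, an adjusted p above the threshold does not show that a level was unchanged, as the intervals of tnfaip3 and nfkb2 show.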
